A study of Homo sapiens with 16 samples.

Results

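The 53 genes described here encode the machinery of G2/M and mitosis: the kinases and cyclins of mitotic entry, the spindle checkpoint, the kinetochore, the spindle motors, and the proteins of chromosome condensation and cytokinesis. They were picked by symbol from a list, and all 53 were found among the 18227 genes measured. RNA was sequenced from A549 and H2023, a pair of established lung cancer cell lines of the non-small cell type, either wild type or labelled as knockout of ZC3H12A. That gene encodes Regnase-1, an RNase that degrades a set of mRNAs. Normal culture lasted 3 days, and a culture that enriches stem-like cells, here called oncosphere culture, lasted 7 days. The 2 lines, 2 genotypes and 2 cultures gave 8 groups of 2 libraries, 16 in all. By their titles the libraries labelled knockout come from 1 clone per line, so they compare a clone with wild-type cells. Culture and days in culture cannot be told apart.

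Entry into mitosis is driven by CDK1 bound to cyclin B, switched on by CDC25 phosphatases and helped by PLK1 and the Aurora kinases. The checkpoint kinases and MAD2L1 hold back the anaphase-promoting complex until every kinetochore is attached to the spindle, after which CDC20 and its ubiquitin-conjugating partners UBE2C and UBE2S let the complex destroy cyclin B and securin (PTTG1). Most of these mRNAs are made late in the cell cycle, so their summed level in a culture is widely read as a measure of how many cells are dividing, and MKI67 (Ki-67) is the usual proliferation marker in lung tumours. In bulk RNA, fewer cells in G2 or mitosis and less of these mRNAs per cell cannot be told apart.

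Transcription of this group is known to be controlled through the cell cycle homology element and CCAAT boxes. The MuvB complex binds the element and NF-Y the boxes. The words taken were TTTGAA for the element and CCAAT for the boxes. Both words were searched on both strands in RefSeq promoter windows (GRCh38.p14, 250 bases before to 50 bases after a transcription start), where 45 of the 53 genes had an entry. TTTGAA was present for 32 of the 45 genes (71.1%), against 18.2% of 27305 genes with a window. CCAAT was present for 36 (80.0%), against 39.7%. Both words were present for 27 (60.0%), against 7.26%. A gene with several windows was counted once if any window held the word, and a match describes the letters only. Other forms of the element were not searched, so a window without TTTGAA is not shown to lack the element. No promoter entry was matched for RACGAP1, FOXM1, BUB3, TPX2, UBE2C, AURKA, BIRC5 and TTK. The 130 bases directly before the start are printed 5′ to 3′. The genes shown include 4 that hold both words and fell in oncosphere culture in all 4 tests below (CDC20, PLK1, CCNB2, MKI67). They also include CCNB1, which fell too but holds CCAAT without TTTGAA, and CDC25B, the member whose level did not follow the others in A549. Capitals mark TTTGAA and CCAAT, or their reverse complements TTCAAA and ATTGG.
CDC20, chr1:43358851-43358980 (+ strand): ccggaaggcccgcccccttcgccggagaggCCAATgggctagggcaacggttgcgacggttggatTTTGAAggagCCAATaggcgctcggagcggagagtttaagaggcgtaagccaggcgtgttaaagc
PLK1, chr16:23678759-23678888 (+ strand): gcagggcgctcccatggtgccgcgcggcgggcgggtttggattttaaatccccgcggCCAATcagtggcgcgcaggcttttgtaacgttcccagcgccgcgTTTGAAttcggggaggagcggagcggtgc
CCNB2, chr15:59105016-59105145 (+ strand): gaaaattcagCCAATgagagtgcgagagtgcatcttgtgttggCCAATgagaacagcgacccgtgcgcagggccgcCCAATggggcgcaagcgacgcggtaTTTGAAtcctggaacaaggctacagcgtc
MKI67, chr10:128126424-128126553 (- strand): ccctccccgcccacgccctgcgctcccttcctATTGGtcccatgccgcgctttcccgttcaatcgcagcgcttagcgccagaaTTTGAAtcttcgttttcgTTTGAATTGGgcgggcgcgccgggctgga
CCNB1, chr5:69167020-69167149 (+ strand): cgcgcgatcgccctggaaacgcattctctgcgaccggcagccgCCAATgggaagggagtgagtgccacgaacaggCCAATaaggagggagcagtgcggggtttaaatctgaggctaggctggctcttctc
CDC25B, chr20:3796180-3796309 (+ strand): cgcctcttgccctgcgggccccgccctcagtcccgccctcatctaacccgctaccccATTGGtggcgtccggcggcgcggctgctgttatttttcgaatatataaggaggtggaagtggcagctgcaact
In CDC20 the TTTGAA begins 65 bases before the start and lies between a pair of CCAAT boxes. In PLK1, CCNB2 and MKI67 a TTTGAA begins 29 bases before the start, and in MKI67 that match shares a base with an ATTGG. For CDC25B 1 of its 4 windows is shown, and none of the 4 holds TTTGAA.

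Expression is given in TPM, a transcript abundance scaled for gene length and for the size of each library. Comparisons between cultures or lines set libraries of separate deposited tables side by side. Each library summed to between 991838 and 998125 TPM over the genes of the tables, and the number of reads behind a library is unknown. Over 14823 genes the replicates of a group had r between 0.977 and 0.99. The share of TPM in 15 mitochondrially encoded genes was 10.3% to 18.7% in normal and 19.5% to 25.6% in oncosphere culture, so it moved with culture. Of 8 markers of a lung epithelial line 6 were listed, and KRT7, KRT8, KRT18, KRT19, EPCAM and CDH1 summed to 2571 to 13032 TPM. KRT7, KRT8 and KRT18 made up most of the sum. In A549 normal culture EPCAM was at only 0.37 to 1.98 TPM, and KRT19 was at 0.67 and 0.29 TPM in libraries labelled knockout. NKX2-1 and SFTPB, which mark alveolar and club cells, were not listed. The listed markers of other cells summed to less. For 3 of 5 fibroblast markers the sum was 1.34 to 10.1 TPM, and for 1 of 4 endothelial markers 0.0 to 2.76 TPM. For 2 of 5 leukocyte markers (CD14 and LYZ) it was 0.48 to 66.2 TPM, highest in A549 oncospheres. There CD14 was at 47.6 and 26.8 TPM in wild type. PTPRC, CD3E, VWF, CDH5 and KDR were not listed. The part of these cell types in the results was not tested. ZC3H12A itself was lower in the libraries labelled knockout in A549 normal culture only (16.9 and 19.9 against 30.7 and 34.9 TPM). In the other 3 comparisons it was higher, at 60.2 and 55.6 against 48.5 and 49.2 TPM in A549 oncospheres, 41.5 and 41.5 against 26.8 and 29.9 TPM in H2023 normal culture, and 94.6 and 69.2 against 32.5 and 26.4 TPM in H2023 oncospheres. The mRNA was thus higher in 3 of 4 comparisons. An edit need not lower the mRNA, so its level does not test the label, and the genotype is given as labelled throughout.

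All 53 genes reached 1 TPM in each of the 16 libraries. Averaged over the libraries, the most abundant was UBE2S at 237 TPM, an enzyme that extends ubiquitin chains, followed by CDC25B at 181 and CCNB1 at 161 TPM. The least abundant were CDC25C at 8.43, CENPE at 8.6 and KIF14 at 9.29 TPM. Summed over the 53 genes, A549 wild-type libraries held 5111 and 4471 TPM in normal culture and 1228 and 1150 TPM in oncosphere culture. A549 libraries labelled knockout held 4255 and 4173 TPM in normal and 1418 and 1867 TPM in oncosphere culture. In H2023 the wild-type sums were 5003 and 4574 TPM, then 1910 and 1812 TPM, and the sums in libraries labelled knockout were 5043 and 5382 TPM, then 1417 and 1538 TPM. Every oncosphere library was therefore below every normal-culture library of both lines, and within oncosphere culture the libraries labelled knockout were above wild type in A549 and below it in H2023. A549 wild-type oncospheres had the lowest group mean of the line for 50 of the 53 genes, and H2023 oncospheres labelled knockout for 48.

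**Figure D1:**
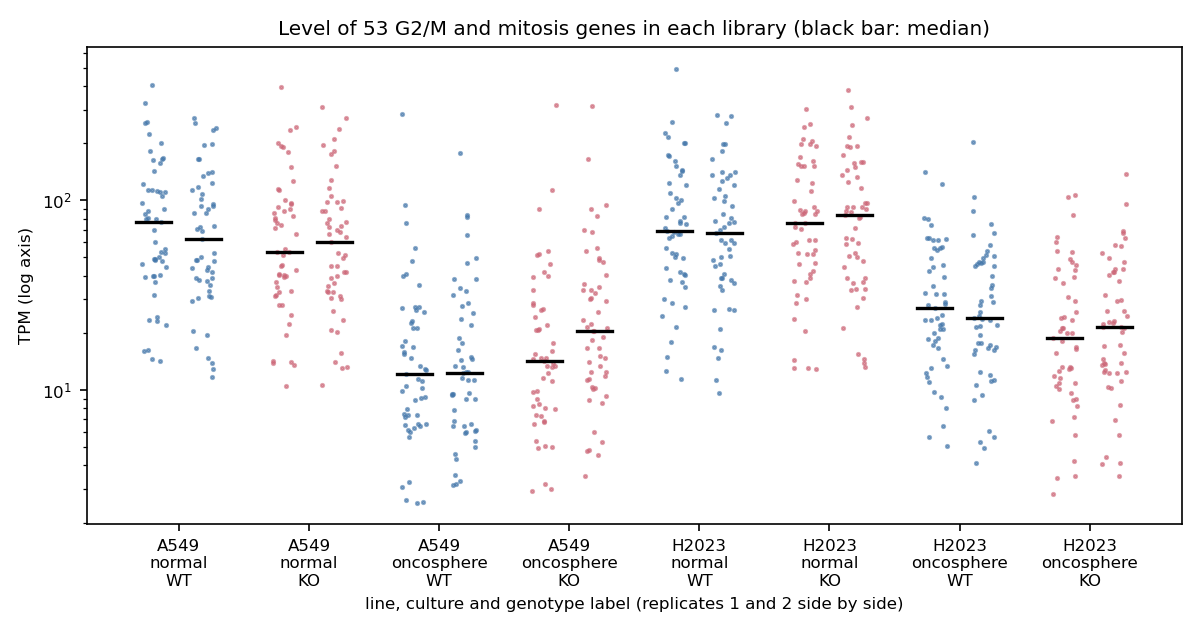
TPM of the 53 genes (points, log axis) in each of the 16 libraries, replicates 1 and 2 side by side, wild type (WT) in blue and labelled knockout (KO) in red. Black bars are medians, which lie between 53.5 and 83.2 TPM in normal culture and between 12.2 and 27.1 TPM in oncosphere culture.

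The culture comparison asked how cells grown as oncospheres differ from cells in normal culture, within a line and genotype. The mitotic genes fell nearly as a block. In A549 wild type 52 of 53 fell (limma on log2(TPM + 1) over the 8 libraries of the line, adjusted p under 0.05), where 21.6% of all genes fell, and the median difference was -2.22 on the log2 scale against -0.01 over all genes. In A549 labelled knockout 52 fell (background 9.87%), with a median of -1.70. In H2023 wild type 51 fell (17.4%), with a median of -1.34, and in H2023 labelled knockout all 53 fell (19.2%), with a median of -1.83. Both oncosphere libraries lay below both normal-culture libraries for 52, 52, 53 and 53 of the 53 genes in these 4 comparisons, against 37.5%, 32.0%, 46.1% and 42.9% of all genes. In H2023 all genes together moved by -0.18 in wild type and -0.12 in libraries labelled knockout, and with fold changes centred on expressed genes the members' medians were -1.09 and -1.66. With mitochondrially encoded genes left out of the TPM, the medians were -2.1, -1.66, -1.12 and -1.62, and 50 of 53 genes were called in H2023 wild type.

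Among the entry kinases, cyclins and regulators 9 of 10 fell in both A549 comparisons and 10 of 10 in both H2023 comparisons. CDK1, the kinase that drives mitosis, was at 143 and 140 TPM in A549 wild-type normal culture and at 27.4 and 31.6 TPM in oncospheres. The groups were far apart, and CDK1 fell by 2.23 on the log2 scale (SE 0.13, limma adjusted p = 4.35e-05). In H2023 wild type CDK1 was at 109 and 103 TPM in normal culture against 63.4 and 47.2 TPM, a fall of 4.80-fold in A549 and 1.92-fold in H2023 by mean TPM. FOXM1, the transcription factor that activates many of these genes, was at 96.3 and 90.1 TPM in A549 wild-type normal culture and at 13.0 and 11.5 TPM in oncospheres, 7.61-fold lower. CCNB1 (cyclin B1) was 5.66-fold and PLK1 5.89-fold lower there, while AURKA (Aurora A) was 3.79-fold lower.

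CDC25B, a phosphatase that activates CDK1, did not follow the others in A549. It was at 224 and 235 TPM in A549 wild-type normal culture and at 285 and 178 TPM in oncospheres, so the groups overlapped (log2 difference -0.03, SE 0.20, limma adjusted p = 0.918). In A549 labelled knockout it was at 201 and 236 TPM in normal culture and at 316 and 313 TPM in oncospheres, higher in both libraries without passing the test (log2 difference 0.53, adjusted p = 0.0995, limma). In H2023 it fell, from 161 and 141 to 56.9 and 66.8 TPM in wild type (limma adjusted p = 0.00373). CDC25B therefore was the most abundant of the 53 genes in both A549 oncosphere groups, at 231 and 315 TPM on average.

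All 5 checkpoint genes fell in each of the 4 culture comparisons. BUB1, a checkpoint kinase at the kinetochore, was at 40.4 and 31.3 TPM in A549 wild-type normal culture and at 6.55 and 6.85 TPM in oncospheres (limma adjusted p = 0.000144). BUB3, which carries BUB1 and BUB1B to the kinetochore, had the smallest fall of the checkpoint group. Its wild-type levels were 181 and 166 against 94.1 and 83.4 TPM in A549 and 201 and 197 against 121 and 104 TPM in H2023, 1.96-fold and 1.76-fold lower. BUB1B (BubR1) was 7.07-fold lower and MAD2L1 5.51-fold lower in A549 wild-type oncospheres.

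The partners and substrates of the anaphase-promoting complex held the largest falls. CDC20, its mitotic activator, was at 162 and 124 TPM in A549 wild-type normal culture and at 18.2 and 13.3 TPM in oncospheres. This was the largest fall among the 53 genes in that comparison, 9.09-fold by mean TPM (log2 difference -3.11, SE 0.24, limma adjusted p = 8.31e-05). In H2023 CDC20 was also the member with the largest fall, from 258 and 280 to 73.9 and 65.2 TPM in wild type and from 303 and 309 to 43.6 and 43.3 TPM in libraries labelled knockout, the latter 7.04-fold. CDCA3, a mitotic ubiquitin ligase adaptor, was 8.34-fold lower in A549 wild-type oncospheres. UBE2S varied between replicates, with 493 and 279 TPM in H2023 wild-type normal culture against 141 and 203 TPM in oncospheres, and did not pass the test there (log2 difference -1.12, SE 0.35, limma adjusted p = 0.0669).

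The chromosomal passenger complex corrects wrong attachments, and all 4 of its genes fell in every culture comparison. BIRC5 (survivin) was at 113 and 85.7 TPM in A549 wild-type normal culture and at 12.8 and 15.0 TPM in oncospheres, 7.17-fold lower. AURKB (Aurora B) was 6.11-fold lower there and 2.89-fold lower in H2023 wild type. All 6 centromere and kinetochore genes fell in 3 comparisons and 5 of 6 in H2023 wild type. The exception, SPC25 of the NDC80 complex, was at 11.5 and 14.7 TPM in H2023 wild-type normal culture and at 9.17 and 5.64 TPM in oncospheres (limma adjusted p = 0.0627). It also had the smallest fall of the kinetochore group in A549 wild type, 2.03-fold, where CENPF was 6.10-fold lower.

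All 9 kinesins and all 8 spindle microtubule proteins fell in each of the 4 comparisons. KIF20A, a motor of cytokinesis, had the largest fall of the kinesins in A549 wild type, from 53.2 and 42.0 to 6.18 and 6.45 TPM (log2 difference -2.72, limma adjusted p = 0.00011). KIF18A, which limits chromosome oscillation, had the smallest, 3.20-fold. TPX2, which activates Aurora A on the spindle, was 6.44-fold lower in A549 wild type and 3.60-fold lower in H2023 wild type. The cytokinesis regulators ECT2 and RACGAP1 fell in all 4 comparisons. ECT2, the exchange factor that starts the contractile ring, was 2.62-fold lower in A549 wild type and 1.76-fold lower in A549 labelled knockout. The 4 chromosome structure genes also fell in all 4, with TOP2A (topoisomerase II alpha) at 199 and 197 TPM in A549 wild-type normal culture and 26.9 and 28.8 TPM in oncospheres, and MKI67 at 79.8 and 72.2 against 10.2 and 12.5 TPM.

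**Figure D2:**
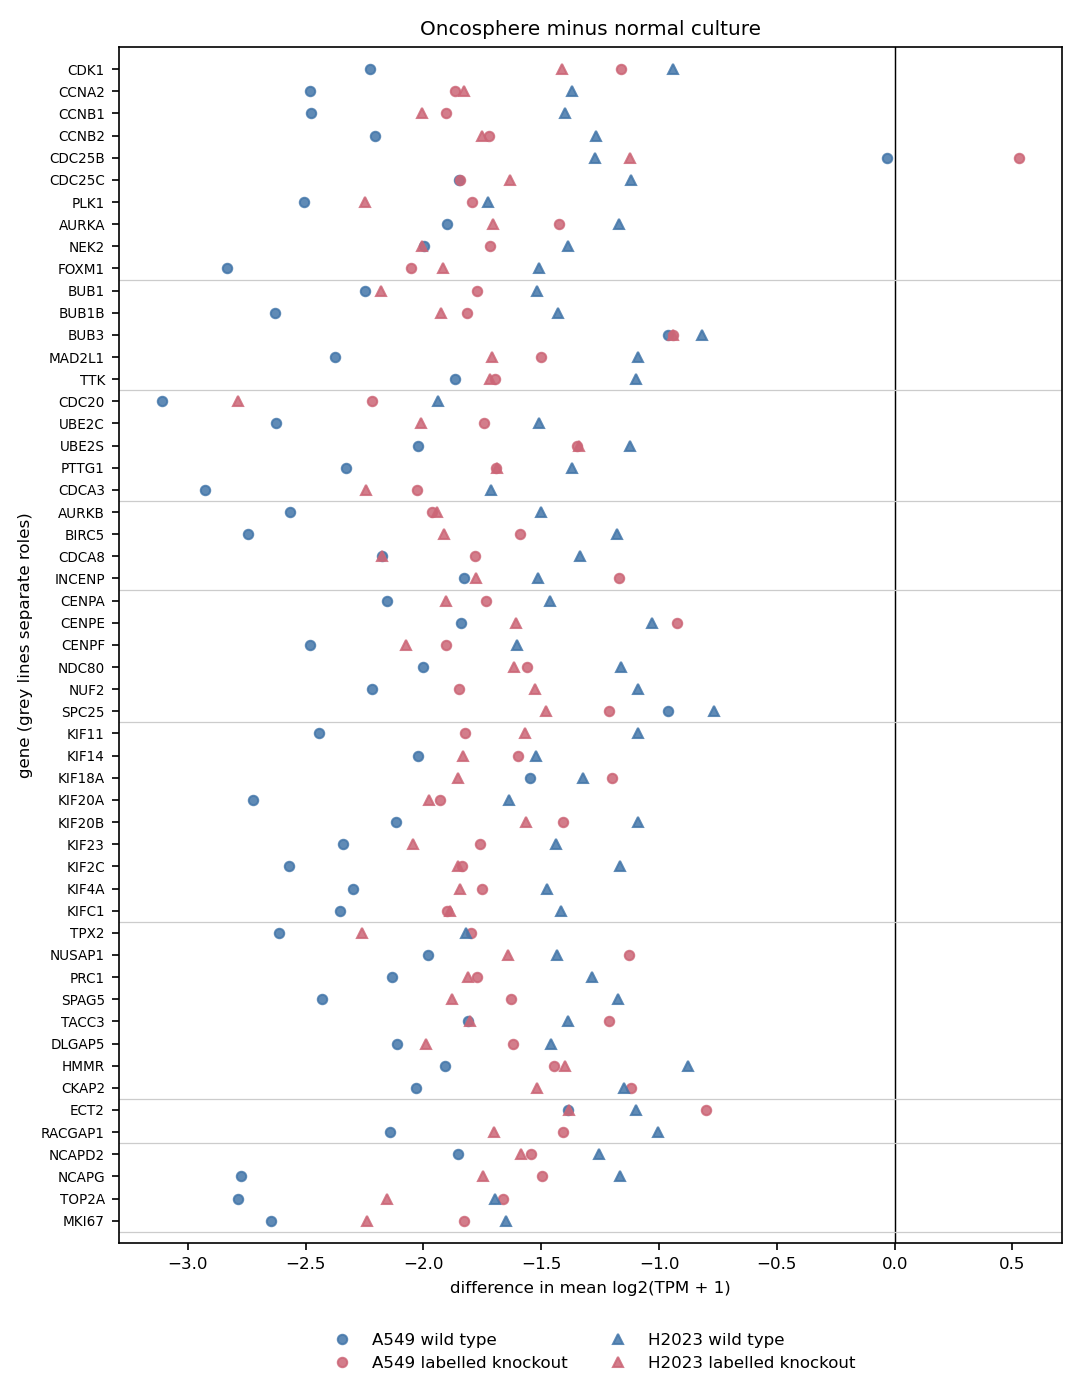
Difference in mean log2(TPM + 1), oncosphere minus normal culture, for each of the 53 genes grouped by role (grey lines), in A549 (circles) and H2023 (triangles), wild type in blue and labelled knockout in red. Nearly all points lie left of 0, from -3.11 for CDC20 in A549 wild type, and CDC25B in A549 stands at -0.03 and 0.53.

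The knockout comparison asked how the cells labelled knockout differ from wild type in each line and culture. The differences were small beside those between cultures, and their signs turned with culture and line. The median over the 53 genes was -0.17 in A549 normal culture, 0.39 in A549 oncospheres, 0.13 in H2023 normal culture and -0.34 in H2023 oncospheres (log2 scale), while all genes together stood at -0.03, 0.03, 0.01 and 0.06. By sign alone 47 of the 53 genes were above 0 in A549 oncospheres and below 0 in H2023 oncospheres. These genes share libraries, so their signs are not independent, and the share of all genes with this pattern was not counted. The tests within each comparison, with 2 libraries a group, called few of them.

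In A549 normal culture 0 of 53 genes rose and 3 fell by limma, near the background of 6.28% of all genes, and 6 fell in the authors' deposited table against 10.9% of the genes tested there. Both libraries labelled knockout lay below both wild-type libraries for 34 genes, against 34.6% of all genes. ECT2 had the largest difference, with 82.7 and 70.0 TPM against 157 and 139 TPM in wild type. ECT2 was 0.52 of its wild-type mean, with groups well apart (log2 difference -0.95, SE 0.12, limma adjusted p = 0.0168, and adjusted p = 8.53e-08 in the authors' deposited table). CDK1 was at 101 and 99.3 against 143 and 140 TPM (log2 difference -0.50, limma adjusted p = 0.0295). MAD2L1, which binds and restrains CDC20, was at 51.6 and 52.7 against 76.6 and 70.8 TPM (log2 difference -0.49, limma adjusted p = 0.0378).

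BUB1B, MKI67 and CCNA2 (cyclin A2) fell there in the authors' deposited table without passing limma's test, with log2 fold changes of -0.52, -0.43 and -0.40. BUB1B was at 28.1 and 30.0 TPM against 48.6 and 38.7 TPM in wild type (limma adjusted p = 0.0652). BUB1, its partner at the kinetochore, was at 44.9 and 42.0 against 40.4 and 31.3 TPM, and was 1 of 6 members with a difference above 0. TOP2A was at 194 and 194 against 199 and 197 TPM (limma adjusted p = 0.842). With any 1 of the 4 libraries left out, limma called 0 of the 53 genes in this comparison.

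In A549 oncospheres 3 of 53 genes rose by limma (CDCA3, NCAPG and TOP2A), against 6.04% of all genes, and 11 rose in the authors' deposited table against 9.29%. The difference was above 0 for 51 genes, and both libraries labelled knockout lay above both wild-type libraries for 34, against 32.7% of all genes. TOP2A had the largest difference, with 54.1 and 67.7 TPM against 26.9 and 28.8 TPM in wild type. That is 2.19-fold higher (log2 difference 1.09, SE 0.14, limma adjusted p = 0.0114, and adjusted p = 5.84e-10 in the authors' deposited table). NCAPG, a condensin subunit, was at 11.5 and 10.1 against 5.98 and 5.01 TPM (limma adjusted p = 0.0392). CDCA3 was at 15.4 and 20.4 against 8.87 and 9.50 TPM (limma adjusted p = 0.0376), though its adjusted p was 0.11 in the authors' deposited table.

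The authors' deposited table also has these genes higher in A549 oncospheres, where limma did not call them: BUB1, CDC20, UBE2C, UBE2S, CENPF, TPX2, NUSAP1, CKAP2 and RACGAP1. BUB1 was at 9.70 and 14.8 against 6.55 and 6.85 TPM, with a log2 fold change of 0.98 in the authors' deposited table (adjusted p = 0.00124). CENPF, a large protein of the outer kinetochore, was at 14.2 and 20.3 against 9.16 and 9.37 TPM (log2 fold change 0.86, adjusted p = 0.00251 in the authors' deposited table). CDC20 was at 20.7 and 33.7 against 18.2 and 13.3 TPM, where the groups do not overlap but replicate 1 exceeds a wild-type library by little. ECT2 and SPC25 were the members with a difference below 0. ECT2 was at 39.7 and 47.0 against 47.8 and 65.3 TPM (log2 difference -0.36, limma adjusted p = 0.249).

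The 2 A549 oncosphere libraries labelled knockout were unlike for these genes. Replicate 2 was above replicate 1 for 50 of 53 genes, with a median difference of 0.48 on the log2 scale. Over the 14823 genes with a mean of at least 1 TPM the median was 0.0. Without replicate 2 the median difference from wild type was 0.16, and without replicate 1 it was 0.65, and limma called 0 members without any 1 of the 4 libraries. A limma fit over the 8 A549 libraries called 11 higher, against 9.39% of all genes. CCNB1, at 51.4 and 89.9 TPM against 56.1 and 49.4 TPM in wild type, shows it: replicate 2 was above both wild-type libraries, and replicate 1 lay between them. TOP2A, NCAPG, CDCA3 and BUB1 were among the 34 members above both wild-type libraries in both replicates, against 32.7% of all genes. The share of mitochondrially encoded genes was 19.5% and 20.3% in these 2 libraries.

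In H2023 normal culture limma called 0 of 53 genes and 0.0% of all genes, with 17 of 53 at an unadjusted p under 0.05 in either direction, against 18.2% of all genes. The authors' deposited table has 7 members higher, against 3.84% of the genes tested there: TTK, CDCA3, KIF20A, KIF23, KIFC1, NUSAP1 and RACGAP1. Both libraries labelled knockout lay above both wild-type libraries for 28 genes, against 26.1% of all genes. KIF23, which forms the centralspindlin complex with RACGAP1, was at 75.7 and 83.2 against 55.9 and 50.7 TPM (log2 fold change 0.44, adjusted p = 0.0086 in the authors' deposited table). RACGAP1 was at 123 and 132 against 97.1 and 84.4 TPM (adjusted p = 0.0108 in the authors' deposited table). KIFC1, a minus-end motor that gathers centrosomes, was at 85.3 and 91.8 against 63.0 and 59.6 TPM, and had the smallest adjusted p of the 7, 0.00185 in the authors' deposited table. ECT2, their partner in cytokinesis, was at 152 and 144 against 123 and 105 TPM (limma adjusted p = 0.22).

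In H2023 oncospheres limma again called 0 of 53 genes and 0.0% of all genes, with 19 of 53 at an unadjusted p under 0.05 in either direction, against 15.5% of all genes. The authors' deposited table has 14 members lower, against 2.85% of the genes tested there, and none higher. Both libraries labelled knockout lay below both wild-type libraries for 40 genes, against 18.9% of all genes. The 14 come from every role but cytokinesis: AURKA and NEK2 among the entry kinases, BUB1, CDC20 and UBE2C, CDCA8 of the passenger complex, CENPF and NUF2 at the kinetochore, the kinesins KIF14, KIF20B and KIF2C, the spindle proteins TACC3 and HMMR, and NCAPG. BUB1 was at 12.7 and 12.4 against 23.4 and 21.9 TPM in wild type. It was 0.55 of its wild-type mean, the largest difference of the 53 (log2 fold change -0.97, adjusted p = 0.000109 in the authors' deposited table, limma adjusted p = 0.222). CDC20 was at 43.6 and 43.3 against 73.9 and 65.2 TPM (adjusted p = 0.00343 in the authors' deposited table). NUF2, which with NDC80 holds microtubules, was at 10.1 and 10.3 against 21.0 and 15.4 TPM (adjusted p = 0.0112 in the authors' deposited table). NCAPG was at 9.59 and 11.1 against 18.9 and 16.6 TPM (adjusted p = 0.013 in the authors' deposited table). A limma fit over the 8 H2023 libraries called 6 members lower in this comparison, against 0.746% of all genes, and 0 in normal culture, where it called 0.258% of all genes higher.

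**Figure D3:**
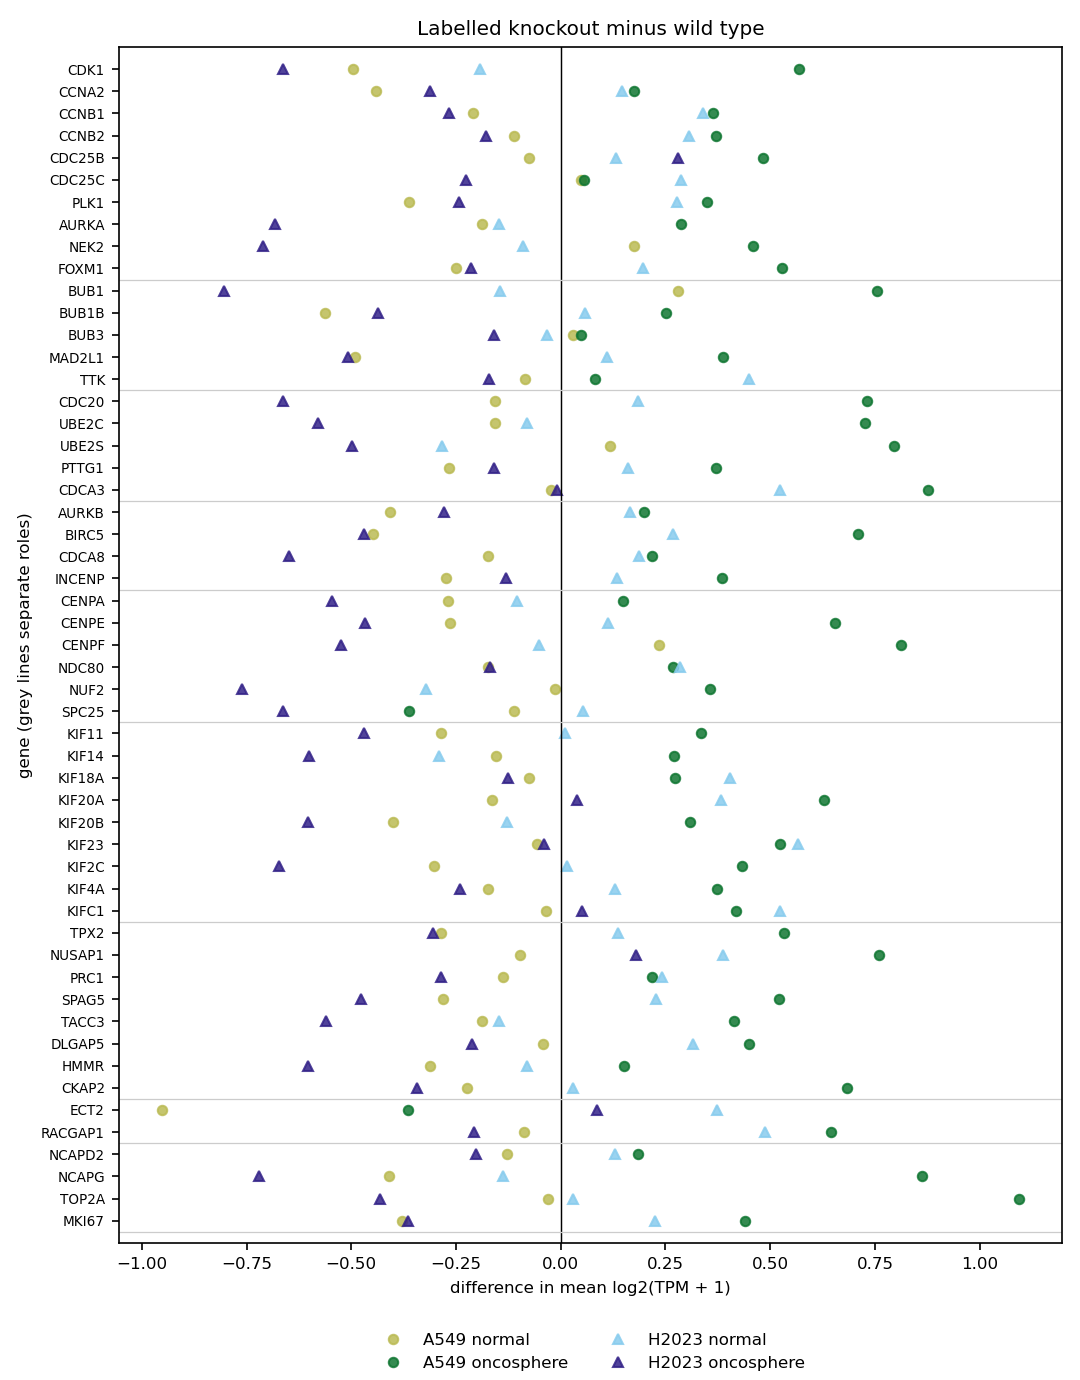
Difference in mean log2(TPM + 1), labelled knockout minus wild type, for each of the 53 genes grouped by role (grey lines), in A549 (circles) and H2023 (triangles) and in both cultures. Green A549 oncosphere points lie right of 0 for 51 genes up to 1.09 (TOP2A), dark H2023 oncosphere points lie left of 0 for 48 genes down to -0.80 (BUB1), and ECT2 in A549 normal culture is at -0.95.

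Whether the difference between genotypes itself differs between cultures was tested per gene, from the log2 fold changes and standard errors of the authors' deposited tables and, separately, as a limma interaction term over 8 libraries. In A549 10 of 53 genes had a higher fold change in oncospheres than in normal culture from the authors' deposited tables, against 4.2% of all genes, and 5 by limma, against 3.52%, with 4 called by both. The 4 were CDK1, CKAP2, NCAPG and TOP2A. For CDK1 the fold change was -0.40 in normal culture and 0.54 in oncospheres in the authors' deposited tables, a difference of 0.95 (SE 0.25, adjusted p = 0.00438). Both normal-culture libraries labelled knockout were below wild type and both oncosphere libraries above it. For TOP2A the difference was 1.05 (SE 0.20, adjusted p = 1.03e-05, authors' deposited tables) and 1.12 by limma (adjusted p = 0.014). The limma calls depended on single libraries, with more members called without oncosphere replicate 1 labelled knockout than without replicate 2.

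In H2023 the fold change was lower in oncospheres for 52 of 53 genes, with a median of -0.59, and 2 passed the test from the authors' deposited tables, against 0.0549% of all genes. They were CDC20, with a difference of -0.90 (SE 0.22, adjusted p = 0.0152), and BUB1, with -0.87 (SE 0.23, adjusted p = 0.0467, authors' deposited tables). The limma interaction called 0 of 53, and 0.0% of all genes. CDC20 was above wild type in both normal-culture libraries labelled knockout (303 and 309 against 258 and 280 TPM) and below it in both oncosphere libraries.

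Between lines the fold changes were set against each other in the same way. In normal culture 9 of 53 genes had a higher fold change in H2023 than in A549 from the authors' deposited tables, against 7.0% of all genes, and 9 by limma, against 6.89%, with 6 called by both (CCNA2, ECT2, KIF23, KIFC1, MKI67 and PLK1). ECT2 differed most, by 1.15 (SE 0.19, adjusted p = 1.27e-07, authors' deposited tables) and by 1.32 in limma (adjusted p = 0.00491). It was lower in A549 and higher in H2023 libraries labelled knockout, without overlap in either line. Here too the limma calls depended on single libraries, with the most members called without A549 wild-type replicate 2.

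In oncosphere culture 25 of 53 genes had a lower fold change in H2023 than in A549 from the authors' deposited tables, against 5.9% of all genes, with a median of -0.81 over the 53. By limma 13 were lower, against 4.02% of all genes, and 12 were called by both. The 25 include BUB1 (-1.95, SE 0.33), CENPF (-1.71, SE 0.31), TOP2A (-1.62, SE 0.27), CDC20 (-1.59, SE 0.32) and UBE2S (-1.48, SE 0.30), from the authors' deposited tables. Their adjusted p-values were 1.37e-07, 1.28e-06, 9.52e-08, 3.03e-05 and 1.97e-05. For BUB1 the level in libraries labelled knockout was nearly the same in both lines, 12.2 TPM on average in A549 and 12.5 TPM in H2023, while wild type was at 6.70 and 22.7 TPM. ECT2 was the only member with a difference above 0, 0.38 (SE 0.27). By role, 5 of 8 spindle proteins, 4 of 9 kinesins, 3 of 6 kinetochore genes, 3 of 5 partners of the anaphase-promoting complex, 3 of 4 chromosome structure genes, 3 of 10 entry regulators, 2 of 5 checkpoint genes, 1 of 4 passenger genes and 1 of 2 cytokinesis regulators were called. In A549 oncospheres these values rest on 2 unlike libraries labelled knockout. The median of the limma interaction was -0.51 without replicate 2 and -1.02 without replicate 1. The tests between cultures and between lines share libraries, so they are not independent.

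**Figure D4:**
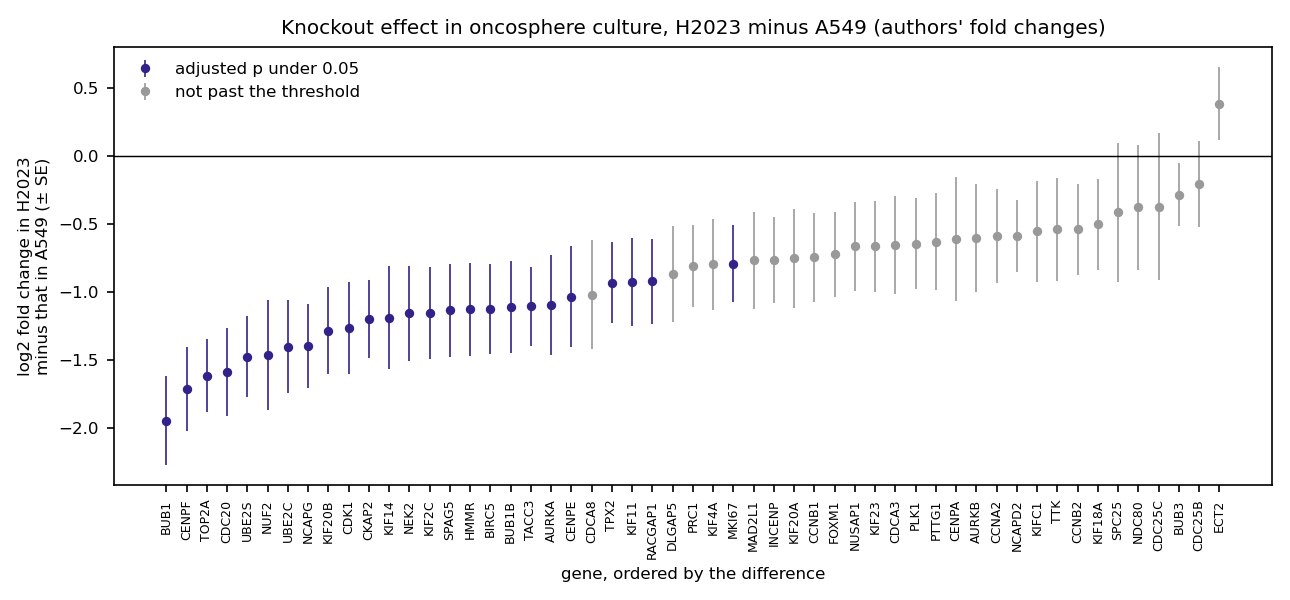
Log2 fold change of labelled knockout over wild type in H2023 oncospheres minus that in A549 oncospheres, from the authors' deposited tables, for the 53 genes in order, with bars of 1 SE. Dark points passed an adjusted p of 0.05 (25 genes), and the values run from -1.95 (BUB1) to 0.38 (ECT2).

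The lines were also compared as wild type. In normal culture they were alike in sum, with 10 of 53 genes higher in H2023 (22.0% of all genes were) and 11 lower (12.4%), limma over the 4 wild-type libraries. The genes called higher included CDC20 (258 and 280 against 162 and 124 TPM, limma adjusted p = 0.0122), BUB1 (66.1 and 67.5 against 40.4 and 31.3 TPM, limma adjusted p = 0.012) and FOXM1 (143 and 135 against 96.3 and 90.1 TPM, limma adjusted p = 0.0115). The genes called lower included CCNB1 (215 and 197 against 325 and 272 TPM, limma adjusted p = 0.0289), CCNB2 (65.1 and 59.2 against 110 and 95.7 TPM, limma adjusted p = 0.0114) and KIF23. All genes together stood 0.12 higher in H2023 here, and with centred fold changes the members' median was -0.17 in place of -0.01.

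In oncosphere culture 37 of 53 genes were higher in H2023 wild type, against 15.8% of all genes, and 1 was lower, against 17.8%. The median difference was 0.99 on the log2 scale. KIF2C, a microtubule depolymerase, differed most, with 32.5 and 31.2 TPM in H2023 against 6.49 and 5.94 TPM in A549, 5.13-fold (log2 difference 2.19, SE 0.15, limma adjusted p = 0.00334). CDC20 was 4.42-fold and FOXM1 3.93-fold higher. CDC25B was the 1 gene that was lower, at 56.9 and 66.8 against 285 and 178 TPM, 3.74-fold by mean TPM (limma adjusted p = 0.00848). The calls of members in both line comparisons depended on single libraries, and leaving out either A549 wild-type library ended all of them.

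**Figure D5:**
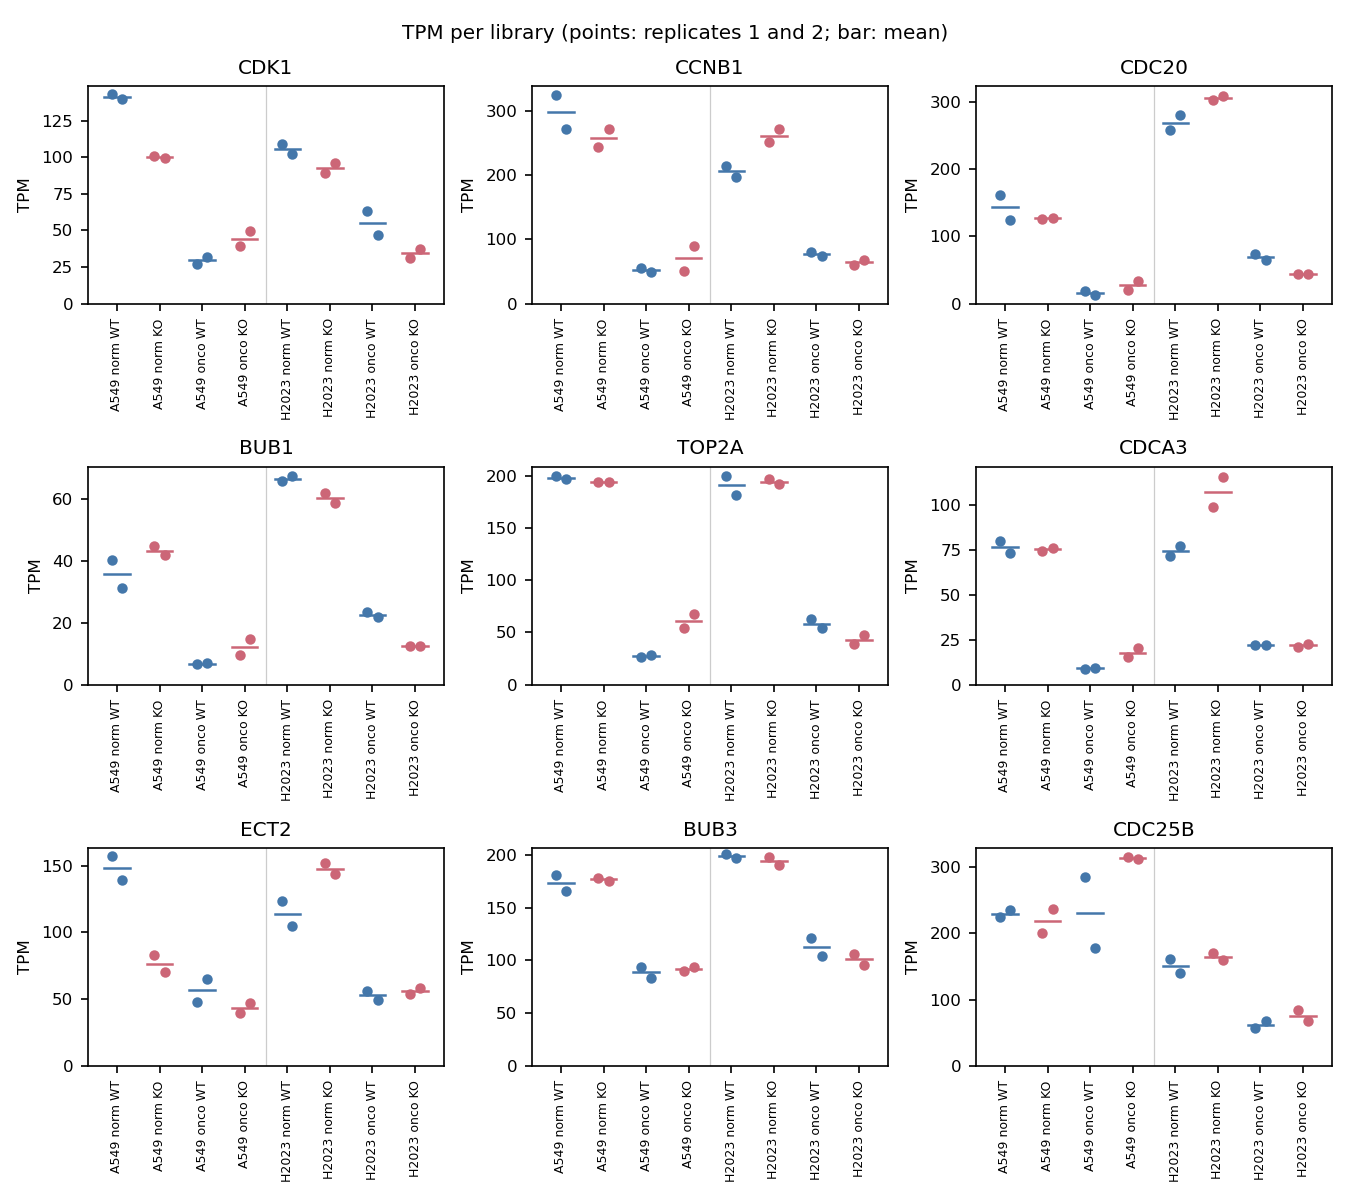
TPM in each library (points) and group mean (bars) for 9 of the genes, wild type (WT) in blue and labelled knockout (KO) in red, A549 left and H2023 right of the grey line, with norm for normal and onco for oncosphere culture. BUB1 in oncospheres is higher in A549 KO and lower in H2023 KO, ECT2 is low in A549 normal KO, BUB3 falls least among the checkpoint genes with culture, and CDC25B stays high in A549 oncospheres.

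The rest of the cell cycle machinery was examined through 95 other genes, of which 93 were listed. All 34 G1/S and replication genes fell in oncospheres of A549 wild type, with a median of -2.54, and 32, 31 and 34 of the 34 fell in A549 labelled knockout, H2023 wild type and H2023 labelled knockout. Among 18 cohesin and condensin genes 16, 15, 15 and 16 fell, and none rose. The 16 subunits and regulators of the anaphase-promoting complex had smaller differences, with 9, 3, 10 and 7 falling, against 21.6%, 9.87%, 17.4% and 19.2% of all genes, and medians of -0.46, -0.29, -0.46 and -0.50. FBXO5 (EMI1), which inhibits that complex, had the largest fall among them, from 24.6 and 22.2 to 5.09 and 4.87 TPM in A549 wild type. MYBL2, the B-MYB subunit that joins MuvB at these promoters, fell from 97.0 and 91.1 to 11.2 and 10.98 TPM in A549 wild type (limma adjusted p = 3.32e-05).

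In the genotype comparisons limma called 6 of the 34 G1/S genes lower in A549 normal culture (6.28% of all genes were) and 10 higher in A549 oncospheres (6.04%), and 0 in H2023 in either culture. SGO2, which protects centromeric cohesin, was at 6.99 and 9.31 against 2.17 and 2.88 TPM in A549 oncospheres (limma adjusted p = 0.0213, and adjusted p = 1.62e-06 in the authors' deposited table). In H2023 oncospheres it was at 2.72 and 2.62 against 7.68 and 6.07 TPM. It did not pass limma's test there (limma adjusted p = 0.231, and adjusted p = 0.000175 in the authors' deposited table). MYBL2 fell in A549 normal culture, with 52.3 and 46.2 against 97.0 and 91.1 TPM (limma adjusted p = 0.0134). Inhibitors of the cell cycle were listed for 7 of 9. CDKN1A, the p21 inhibitor of cyclin-dependent kinases, was at 238 and 229 against 102 and 66.9 TPM in A549 oncospheres (log2 difference 1.49, limma adjusted p = 0.0134). Its level was close in both libraries labelled knockout, which were unlike for the mitotic genes. PKMYT1, which holds CDK1 inactive, was at 14.4 and 16.4 against 5.90 and 7.58 TPM there (limma adjusted p = 0.022) and had been at 86.4 and 80.0 TPM in A549 wild-type normal culture. Other inhibitors were lower in A549 oncospheres labelled knockout, without overlap. CDKN1B was at 34.2 and 38.9 against 48.1 and 46.4 TPM (limma adjusted p = 0.103, and adjusted p = 0.0462 in the authors' deposited table). CDKN2C was at 15.2 and 16.4 against 22.7 and 22.2 TPM (limma adjusted p = 0.0657). CDKN2D, CDKN1C and WEE1 passed neither test there. With culture the inhibitors did not move one way either. PKMYT1 fell in all 4 culture comparisons and WEE1, which also restrains CDK1, in the 3 other than H2023 wild type. CDKN1A rose in oncospheres of A549 wild type (log2 difference 1.29, limma adjusted p = 0.00678) and of A549 labelled knockout (2.34, limma adjusted p = 0.0011). CDKN1B (p27) rose in both A549 genotypes, by 0.62 and 0.64, and CDKN2D (p19) in both H2023 genotypes, by 1.04 and 1.56. CDKN2C (p18) fell in A549 labelled knockout. CDKN1A differed between replicates in H2023, with 12.03 and 27.1 TPM in wild-type oncospheres and 11.2 and 23.8 TPM in those labelled knockout.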

How the data were processed

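TPM were made by the authors and deposited in 4 tables, 1 per line and culture, each with 4 libraries of total RNA made into mRNA libraries. Per the file headers the tables also give the mean normalized count, a signal averaged over the libraries, with a log2 fold change and its standard error, a test statistic (score) and p-values with adjusted p-values. The score has the opposite sign to the fold change in all 18361 rows, so directions are from the fold change. HISAT2, StringTie and GRCh38 are named in the submitters' processing notes, without versions. Adjusted p-values were missing in 707 to 2827 genes. 119 repeated identifiers were used once.

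From TPM, log2(TPM + 1) was tested with limma 3.58.1 (R 4.3.3; the prior variance followed mean expression), two-sided, with Benjamini-Hochberg adjustment over 18227 genes at 0.05, and without a filter. Folds on this scale understate changes of low genes. Genotype and line comparisons used their 4 libraries, culture comparisons the 8 of a line. An interaction was the difference of the authors' log2 fold changes divided by its standard error (taking the tables as independent), set against a normal distribution. On simulated data with 200 changed genes the test recovered 84 to 98 of 100 log2 changes of 1 across the 10 designs, with 2 to 16 false calls. The changed genes had a mean log2(TPM + 1) above 2. The simulated noise was independent between genes, with a spread set by mean level alone. Shifts shared by genes within a library were not simulated, so recovery in the real data was not tested. Nothing says that replicates are separate cultures, so p-values measure the spread between these libraries. The members and lists were chosen with earlier results of these data known. Named genes were 11 core members, the largest change in each role, the highest and lowest 3, and in each other list the largest change. Other genes, such as BUB3, KIF18A, KIF23 or CDKN1A where outside that rule, were chosen after their values were seen. Alternatives were the pseudocount, a filter, TPM without mitochondrially encoded genes, centring, the replicate block and each library left out.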

Additional observations from a re-analysis of the deposited data

Results flagged for a closer look

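The genotype difference differed between cultures or lines for several of the mitotic genes, by the test of the difference of the fold changes in the authors' deposited tables. Between cultures in A549 10 of 53 genes, against 4.2% of all genes, were higher in oncospheres. They included BUB1B (1.09), TOP2A (1.05), NCAPG (1.02), CDC20 (0.99), BIRC5 (0.97), CDK1 (0.95) and MKI67 (0.78), each the difference of 2 log2 fold changes from the authors' deposited tables. Of these the limma interaction called only TOP2A, NCAPG and CDK1. Between cultures in H2023 2 genes, against 0.0549% of all genes, were lower in oncospheres, with CDC20 at -0.90. The limma interaction called neither.

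Between lines in normal culture 9 genes, against 7.0% of all genes, were higher in H2023 than in A549. The 9 included ECT2 (1.15), BUB1B (0.66), BIRC5 (0.60), MKI67 (0.58) and PLK1 (0.58), from the authors' deposited tables. BUB1B and BIRC5 were not called by the limma interaction. Between lines in oncosphere culture 25 genes, against 5.9% of all genes, were lower in H2023. BUB1 (-1.95), CENPF (-1.71), TOP2A (-1.62), CDC20 (-1.59) and UBE2C (-1.40) were among them, with CDK1 (-1.27), BIRC5 (-1.13), AURKA (-1.09) and MKI67 (-0.80), from the authors' deposited tables. BIRC5, AURKA and MKI67 were not called by the limma interaction. The A549 oncosphere replicates labelled knockout differ by a median of 0.48 over the 53 genes, and their part in these values is given with each left out in the results above.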

How the results depend on the processing

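Fits to 3 of 4 libraries assume that a lone library varies like the others. Counts of members with a library left out, a filter or the replicate block have no share of all genes beside them. They therefore do not show whether calls changed more for the members than for other genes. Leaving out each library in turn, limma called 0 members in every genotype comparison, with medians of -0.25 to -0.11 in A549 normal culture, 0.16 to 0.65 in A549 oncospheres, 0.11 to 0.18 in H2023 normal culture and -0.46 to -0.26 in H2023 oncospheres. Culture medians ranged from -2.34 to -2.12 (A549 wild type), -1.95 to -1.44 (A549 labelled knockout), -1.42 to -1.29 (H2023 wild type) and -1.89 to -1.72 (H2023 labelled knockout), with 51 to 52, 49 to 53, 43 to 51 and 52 to 53 members called. Line comparisons called 0 to 3 members in normal culture (median -0.11 to 0.12) and 0 to 23 in oncospheres (0.91 to 1.00). The limma interactions called 0 to 10 members between cultures in A549 (median 0.40 to 0.84), 0 in H2023 (-0.60 to -0.39), 1 to 11 between lines in normal culture (0.29 to 0.47) and 2 to 16 in oncospheres (-1.02 to -0.51).

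In A549 normal culture 6 members were called at a mean TPM of at least 1 and 6 in the authors' deposited table, against 3. In A549 oncospheres, also against 3, these counts were 6 and 11, with 11 over the 8 libraries of the line. In H2023 normal culture, against 0, they were 2 and 7. In H2023 oncospheres, against 0, there were 14 in the authors' deposited table and 6 over 8 libraries. The authors' deposited tables called 10.9% of the genes tested lower in A549 normal culture and 9.29% higher in A549 oncospheres. In H2023 they called 3.84% higher in normal culture and 2.85% lower in oncospheres. Over 8 libraries limma called 9.39% of all genes higher in A549 oncospheres and 0.746% lower in H2023 oncospheres. In place of the difference of the authors' fold changes, the limma interaction called 5 between cultures in A549, 0 in H2023 and 13 between lines in oncospheres. Samples with the same replicate number deviated together over genes with r of 0.075 and 0.131 in A549 normal and oncosphere culture. In H2023 r was 0.027 in normal culture and 0.461 in oncospheres. Each value rests on 2 pairs, and the numbers were not taken as pairs. This may leave a shared replicate difference within the H2023 oncosphere test. With the replicate block limma called 8 members in A549 oncospheres, and its interaction called 0 between cultures in H2023, 2 between lines in normal culture and 16 in oncospheres.

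The culture median in A549 wild type was -2.35 with a pseudocount of 0.1 and -2.1 without mitochondrially encoded genes. Without these genes it was -1.12 in H2023 wild type and -1.62 in H2023 labelled knockout, and with centred fold changes -1.09 and -1.66. The wild-type line median in normal culture was -0.17 when centred. CDC25B turned in A549 wild type, to 0.11 without mitochondrially encoded genes, 0.0405 when centred, and between -0.37 and 0.31 with each library left out, above 0 without wild-type replicate 2 of normal (0.003) or of oncosphere culture (0.31). The cause was not tested. Among values for single genes, 1919 kept direction and call, 63 gained a call and 600 lost one. Depth is unknown, so no detection limit is given.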
